A study of Homo sapiens with 6 samples.

Results

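Iron uptake, storage and regulation in human cells was described here through 10 genes, taken by symbol from the 58051 rows of the count table. They encode the transferrin receptors TFRC and TFR2, the iron importer SLC11A2, the ferritin subunits FTH1 and FTL, the ferritin cargo receptor NCOA4 and the iron exporter SLC40A1. The remaining 3 act on the other transcripts or their regulators: ACO1 and IREB2, which encode the iron regulatory proteins, and FBXL5, which encodes the iron sensor that sends IREB2 protein for degradation. Poly(A)-selected RNA of HEK293T, an embryonic kidney line with the SV40 T antigen, was sequenced 48 hours after transient transfection. The control group of 3 libraries received the empty plasmid pcDNA3.1-. The other group of 3 received pcDNA3.1-ppk1, which carries ppk1, the gene of a bacterial enzyme that builds polyphosphate chains. Libraries B, C and D of each group were matched biological replicates. Both groups went through transfection and were kept in OptiMeM, and the share of cells that took up plasmid is not given in the labels. The series is titled as a study of how human cells respond when long polyphosphate chains are made inside them.

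Cells balance iron largely after transcription. Iron regulatory proteins bind hairpins called iron-responsive elements (IREs) when iron is scarce. At the start of the ferritin and ferroportin messages they block translation, and at the end of the TFRC message they protect it from decay. When iron is plentiful, ACO1 protein takes up an iron-sulfur cluster and works as an aconitase, while IREB2 protein is degraded through FBXL5. Altered decay of the TFRC message can therefore appear in transcript levels, whereas altered translation of ferritin cannot. The files hold counts of transcripts and no measure of protein or iron.

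Matches to an IRE pattern are shown for these genes, because IREs are the shared sequence feature that links uptake, storage and export. They were found in GENCODE release 29 transcripts with a fixed pattern: a C, 5 bases, the loop CAGTG followed by any base, and 5 bases that pair with the first 5 (G-T pairs allowed). The SLC11A2 stretch pairs at only 4 of these 5 positions. An IRE with a different loop or stem would not be found, so the sites shown may not be all. Capitals mark the 6-base loop, and each 30-base stretch reads 5′ to 3′ on the transcript strand.
FTH1, 5′ UTR: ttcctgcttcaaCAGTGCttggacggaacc
FTL, 5′ UTR: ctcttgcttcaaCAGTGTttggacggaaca
SLC40A1, 5′ UTR: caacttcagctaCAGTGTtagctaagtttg
TFRC, 3′ UTR, site a: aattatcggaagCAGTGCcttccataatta
TFRC, 3′ UTR, site b: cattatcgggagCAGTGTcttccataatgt
TFRC, 3′ UTR, site c: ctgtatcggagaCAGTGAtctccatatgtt
TFRC, 3′ UTR, site d: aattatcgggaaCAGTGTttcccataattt
SLC11A2, 3′ UTR: agccatcagagcCAGTGTgtttctatggtt

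In GRCh38 coordinates of GENCODE 29, all on the minus strand unless stated, the FTH1 element lies at chr11:61967573-61967602 and the FTL element at chr19:48965335-48965364 on the plus strand. The SLC40A1 element lies at chr2:189580660-189580689. The 4 TFRC elements found with the pattern lie at chr3:196050978-196051007, chr3:196050574-196050603, chr3:196050509-196050538 and chr3:196050462-196050491, and the SLC11A2 element at chr12:50988268-50988297. The count table names no build, so these positions describe the elements and not the counting. The ferritin elements are identical at 26 of 30 bases.

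The pattern with all 5 pairs occurred in 4 of the 10 genes, against 291 of 19684 protein-coding genes (1.48%) whose coding transcripts were searched. These 4 encode the ferritin, ferroportin and TFRC messages named above as IRE carriers, and the pattern describes IREs. The contrast therefore followed from the choice of genes and is not a result. The TFRC elements lie in 3 of its 4 coding transcripts, the FTH1 element in 7 of 8, the FTL element in the 1 annotated, and the SLC40A1 element in 1 of 5. The SLC11A2 stretch pairs at only 4 of the 5 positions, a looser pattern found in 11.2% of those genes. ACO1 and IREB2 are among them, with equal matches in the 3′ UTR that are not shown here. The SLC11A2 stretch occurred in 5 of the 18 coding transcripts annotated for SLC11A2. Counts are per gene, so SLC11A2 messages with and without the element were not separated.

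Of the 10 genes, 9 had enough counts to be tested with edgeR's quasi-likelihood test, with the replicate letter as a block. None of the 9 passed a Benjamini-Hochberg adjusted p of 0.05. Over all 19574 genes tested, 1777 passed (9.08%). At an unadjusted p below 0.05 there were 2 of the 9, FTH1 and SLC11A2, where the share over all genes was 23.8%. DESeq2 also called 0 of the 9, with 2 at an unadjusted p below 0.05. It called fewer genes in all, 755 of the 37850 with a p-value, which include genes too low for the edgeR test. The levels of the 2 groups did not overlap for 3 of the 9 (FTL, SLC11A2 and ACO1), against 25.6% of all genes tested. The median log2 fold change of the 9 was 0.00, beside 0.01 over all genes, and the median absolute value was 0.09, beside 0.13. For a set of 9 genes, these counts were close to the shares over all genes. Levels below are CPM, a gene's count per 1e+06 counts of its library after TMM scaling of the total.

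**Figure D1:**
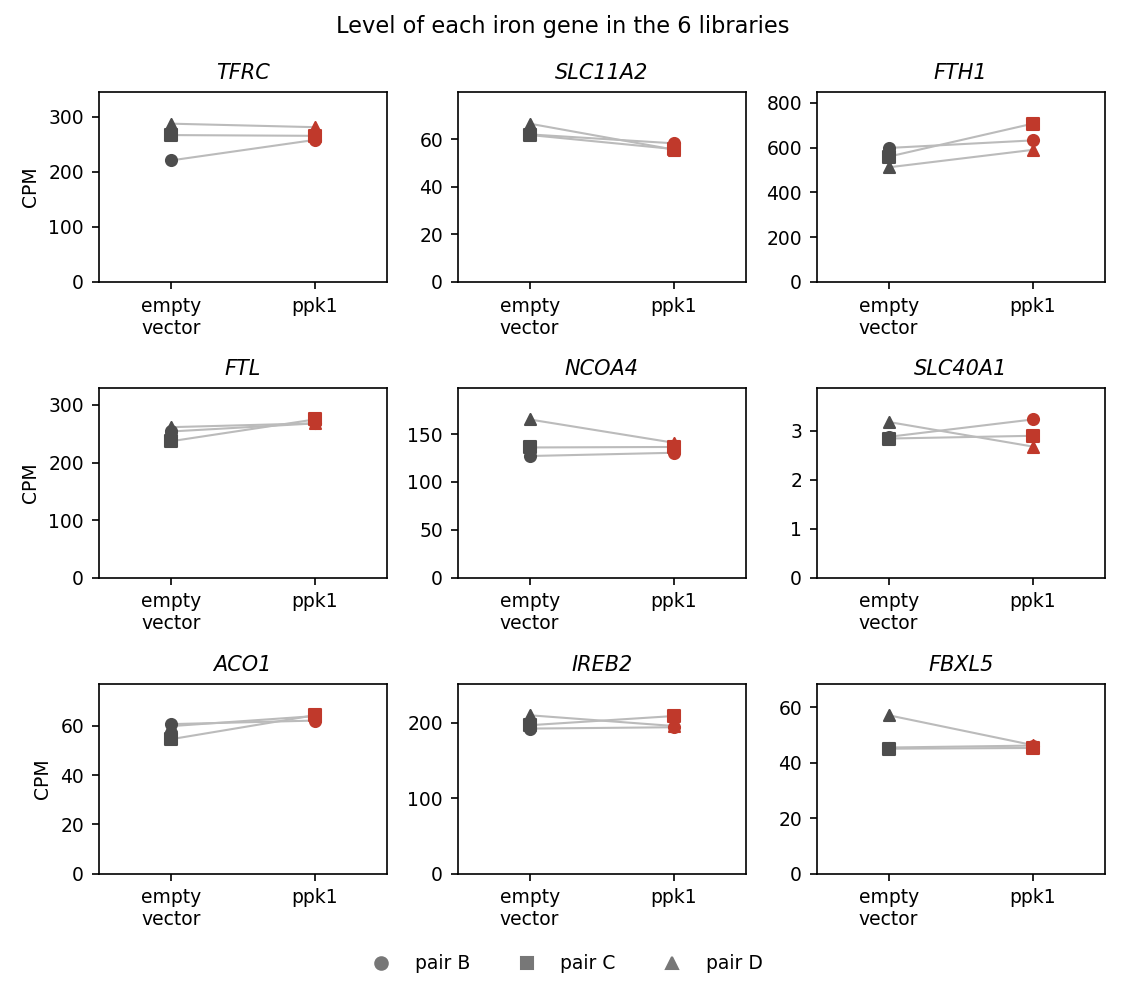
Level in CPM (vertical axes, linear, starting at 0) of the 9 tested iron genes in the 3 empty vector libraries (grey) and the 3 ppk1 libraries (red); lines join libraries of the same letter. FTL, SLC11A2 and ACO1 show groups that do not overlap, and FBXL5 and NCOA4 show a control library D above all others.

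TFRC, the receptor that takes transferrin-bound iron into the cell, stood at 220.7, 266.8 and 287.5 CPM in control libraries B, C and D. With ppk1 it stood at 258.0, 265.4 and 281.2 CPM. Control B was the lowest library, and the ppk1 values lay inside the control range. The log2 fold change was 0.06 (SE 0.07, edgeR adjusted p = 0.66). As a percentage of the control level, the 95% interval of the difference ran from -5.93% to 15.9%. Without replicate B the log2 value was -0.02, so the sign rested on that pair.

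TFR2, the second transferrin receptor and mainly a gene of liver and erythroid cells, had counts of 3, 0 and 1 in the control libraries. Its counts were 0, 2 and 3 with ppk1. The groups overlapped. No library exceeded 3 counts, the upper limit that a count of 0 allows (0.0449 to 0.0734 CPM, counting error only), so no fold was computed.

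SLC11A2, which moves ferrous iron out of the endosome, stood at 62.0, 61.8 and 66.6 CPM in the controls. The ppk1 libraries had 58.3, 55.9 and 55.7 CPM. Every ppk1 library was below every control library, with pair differences of -0.09, -0.14 and -0.26 on the log2 scale. The fitted value was -0.16 (SE 0.08), with an unadjusted p of 0.035 and an edgeR adjusted p of 0.17. The interval before adjustment ran from -19.6% to -0.83%.

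FTH1, the heavy subunit that oxidises iron for storage, stood at 599.0, 560.1 and 512.5 CPM in the controls. The ppk1 libraries had 632.8, 707.6 and 590.5 CPM. The ppk1 library was the higher of each pair, by 0.08, 0.34 and 0.20 on the log2 scale, while the groups overlapped because control B lay above ppk1 D.

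The FTH1 log2 fold change was 0.21 (SE 0.08), the largest of the 9 in size. Its unadjusted p was 0.0092 and its edgeR adjusted p 0.079, against 0.085 in DESeq2. The 95% interval before adjustment ran from 3.79% to 28.4% higher. Without replicate C the log2 fold change was 0.14 (adjusted p = 0.77), and without replicate B it was 0.27 (adjusted p = 0.055). Over all genes, 406 of 19751 passed without replicate C, against 1777 of 19574 with all pairs. When genes with low counts were kept in the test, the adjusted p of FTH1 was 0.0485.

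FTL, the light ferritin subunit that helps build the iron core, stood at 254.0, 237.0 and 261.5 CPM in the controls. In the ppk1 libraries it was at 268.0, 274.9 and 268.2 CPM, above every control library. Pair differences were 0.08, 0.21 and 0.04 on the log2 scale, and the fitted value was 0.11 (SE 0.07, edgeR adjusted p = 0.39). The 95% interval ran from -2.65% to 19.5%. Without replicate C the fitted value was 0.06.

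Reads of both ferritin genes can match processed pseudogenes. Of the 50-base stretches of their transcripts, 19.9% (FTH1) and 18.3% (FTL) also occur in transcripts of other genes. The 25 FTH1 pseudogene rows together held 126 to 203 counts per library, at most 0.602% of the FTH1 count. The 16 FTL rows held 87 to 129 counts, at most 0.918% of the FTL count. Adding these rows to the parent genes left the log2 fold changes at 0.21 and 0.11. How reads that match several places were counted is not given in the sources used here, and reads left out for that reason would be in none of these rows. FTH1 also shares 62.4% of its annotated exon bases with BEST1 on the opposite strand, whose own row held 647 to 1016 counts, 2.14% to 3.21% of FTH1. Whether the counting used the strand is not given in the sources used here, so the FTH1 level is uncertain on this point too. FTL has no annotated exon overlap on either strand. The unknown handling of reads that match several places leaves both ferritin levels uncertain.

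NCOA4, which delivers ferritin to the lysosome so that its iron can be released, stood at 127.1, 136.0 and 165.2 CPM in the controls. The ppk1 libraries were at 130.5, 136.5 and 140.9 CPM. Only control D lay above the ppk1 range. The log2 difference was -0.06 (SE 0.07, edgeR adjusted p = 0.66), and it was 0.00074 without replicate D.

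SLC40A1, which encodes ferroportin, the only known iron exporter of animal cells, was low, at 2.88, 2.84 and 3.18 CPM in the controls. With ppk1 it was at 3.23, 2.90 and 2.68 CPM, so the groups overlapped. These levels rested on 112 to 216 counts per library. Its log2 fold change was -0.01 (SE 0.14, edgeR adjusted p = 0.99), with the widest interval of the 9, from -18.1% to 21.2%.

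ACO1, the iron regulatory protein that doubles as cytosolic aconitase, stood at 60.7, 54.6 and 59.9 CPM in the controls. The ppk1 libraries had 62.1, 64.3 and 64.0 CPM, and every ppk1 library was above every control library. Pair differences were 0.03, 0.24 and 0.10 on the log2 scale, with a fitted value of 0.12 (SE 0.08, edgeR adjusted p = 0.34) and an interval from -2.09% to 20.9%. Without replicate C the fitted value of ACO1 was 0.07.

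IREB2, the iron regulatory protein that is controlled by degradation, stood at 192.0, 196.5 and 209.7 CPM in the controls. With ppk1 it stood at 193.8, 208.6 and 195.4 CPM. The groups covered nearly the same range. Its log2 fold change was 0.00 (SE 0.07, edgeR adjusted p = 0.999), with an interval from -9.75% to 10.7%.

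FBXL5, the substrate receptor of the ubiquitin ligase that acts on IREB2 protein, stood at 45.5, 45.0 and 57.1 CPM in the controls. With ppk1 it stood at 46.2, 45.3 and 46.3 CPM. Control D was the highest library, as for NCOA4. The fitted log2 value was -0.09 (SE 0.08, edgeR adjusted p = 0.52), and the pair differences were 0.02, 0.01 and -0.30. Without replicate D it was -0.01, and without replicate B -0.15.

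**Figure D2:**
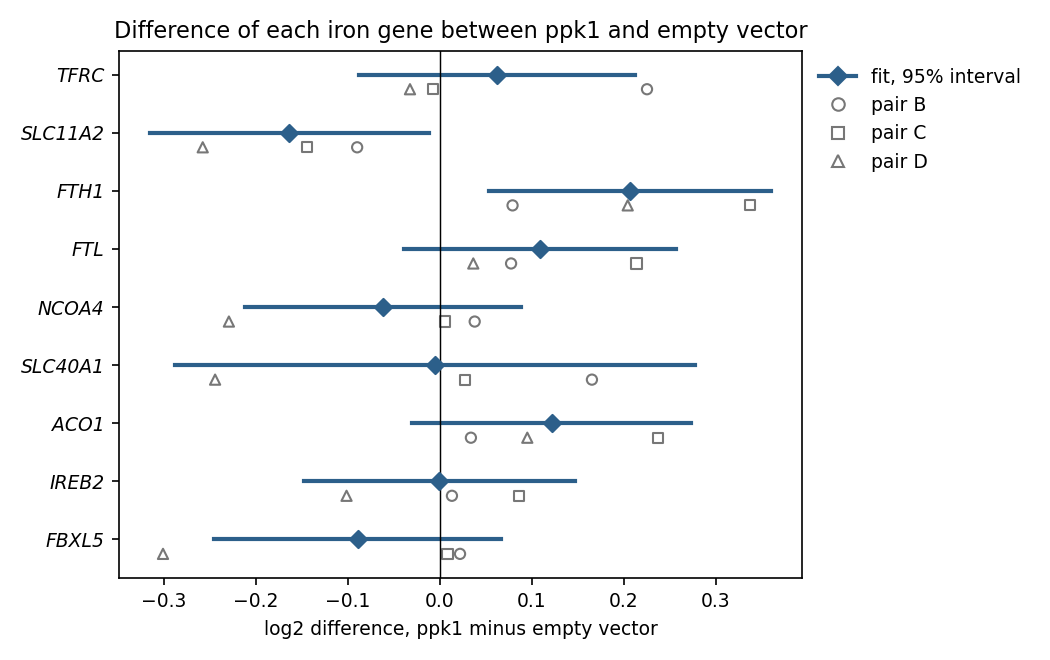
Log2 difference between ppk1 and empty vector (horizontal axis) for the 9 tested iron genes: filled diamonds are the fitted log2 fold changes with their 95% intervals before adjustment, and open symbols are the differences within pairs B, C and D. FTH1 at 0.21 and SLC11A2 at -0.16 have intervals that leave out 0, and neither passed the adjusted p.

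Per kilobase of merged exons, the control means were 285.6 CPM for FTL and 274.5 for FTH1, and these neighbours overlapped in range. They were followed by NCOA4 (35.0) and TFRC (32.8), whose ranges also overlapped, and by IREB2 (18.5) and FBXL5 (10.8). ACO1 was at 7.73 CPM per kilobase, SLC11A2 at 6.26 and SLC40A1 at 0.69. With the longest coding transcript as the length, FTH1 (453.4) stood above FTL (285.6), TFRC (50.5) above NCOA4 (40.2), and SLC11A2 (14.6) above ACO1 (7.82) and level with FBXL5 (14.5), so the order of these genes depended on the length used.

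The ratio of TFRC to FTH1 counts sets uptake against storage within a library and does not depend on scaling. It was 0.368, 0.476 and 0.561 in the controls and 0.408, 0.375 and 0.476 with ppk1. The ratio was higher with ppk1 in pair B and lower in pairs C and D. The mean log2 difference was -0.15 ± 0.26 (SD, n = 3 pairs), with p = 0.5 in the exact two-sided sign-flip permutation test, which cannot go below 0.25 with 3 pairs.

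The ratio of FTH1 to FTL counts, added after the values were seen, was 2.4, 2.4 and 2.0 in the controls and 2.4, 2.6 and 2.2 with ppk1. In pair B the log2 difference was 0.0016, and the ratio was higher with ppk1 in pairs C and D. The mean log2 difference was 0.10 ± 0.09 (SD, n = 3 pairs, exact sign-flip permutation p = 0.25).

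**Figure D3:**
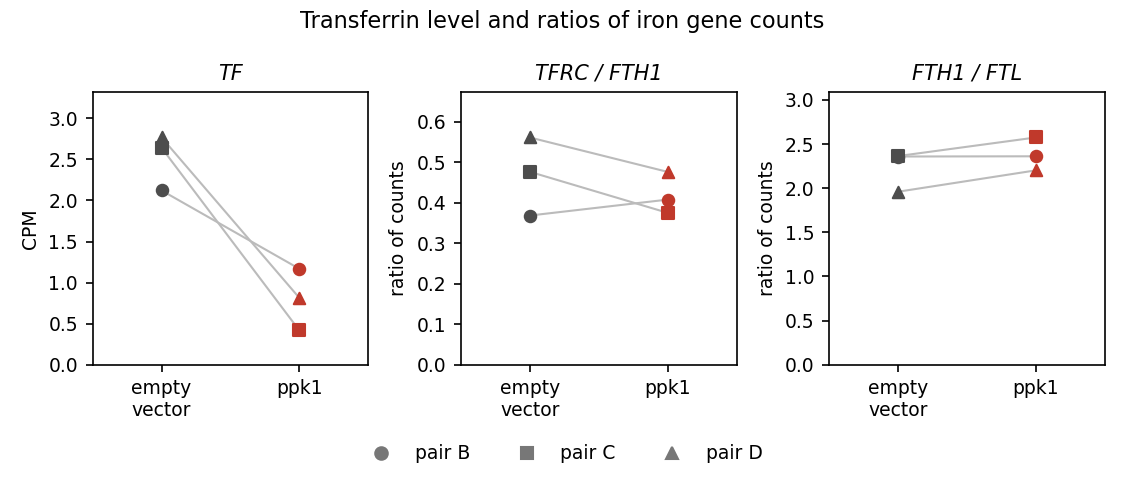
Level of transferrin (TF, in CPM) and the ratios of TFRC to FTH1 and of FTH1 to FTL counts (vertical axes, linear, starting at 0) in the empty vector (grey) and ppk1 (red) libraries, with lines joining libraries of the same letter. TF lay between 0.42 and 1.17 CPM in the ppk1 libraries, below all control libraries, while both ratios overlapped between the groups.

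The other iron and heme genes were taken from 8 lists with 98 genes, of which 85 were tested. By edgeR's adjusted p, 2 of the 85 rose and 2 fell, again beside 9.08% over all genes. The median log2 fold change of the 85 was 0.05. The largest difference was in TF, which encodes transferrin, the plasma protein that carries iron to TFRC and is made chiefly by the liver.

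TF fell in every pair. Its counts were 112, 117 and 113 in the controls and 78, 20 and 34 with ppk1, or 2.12, 2.64 and 2.77 CPM against 1.17, 0.42 and 0.81 CPM. The groups did not overlap, and pair C had the largest difference. On the log2 scale the fold change was -1.61 (SE 0.21, edgeR adjusted p = 1.6e-07, and 0.0070 without the block). It was called under all 10 alternatives tried for it, with log2 values between -2.16 and -1.25. TF overlaps SRPRB and TFP1 on the same strand over 1.16% of its exon bases. Of the 50-base stretches of its transcripts, 2.92% also occur in transcripts of other genes. Its annotated exons cover 26199 bases, and counts per gene do not show where in them the reads lay.

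Transcripts of the hepatocyte markers rested on low counts. The summed level of the 6 markers was 0.966 to 1.25 CPM in the controls and 0.524 to 0.646 CPM with ppk1. Most of it came from ALB (30, 22 and 34 counts against 15, 13 and 9) and APOA1 (16, 21 and 15 counts against 19, 10 and 16, edgeR adjusted p = 0.54), while APOB was at 0 in all libraries and SERPINA1 had a single count over the 6 libraries. Of the 6 markers, only 2 had enough counts for the edgeR test, ALB and APOA1. ALB fell by that test (log2 fold change -1.37, adjusted p = 0.0026). DESeq2 gave ALB an unadjusted p of 0.013 and no adjusted p. The part of the hepatocyte markers in the TF result was not tested. In bulk RNA, fewer cells with a transcript and less RNA per cell cannot be told apart.

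The remaining genes of uptake and reduction did not pass. They include the endosomal ferrireductase STEAP3 (51.1 and 50.4 CPM in control and ppk1 means) and the importer SLC39A14 (109.5 and 110.4 CPM). Of the 13 tested genes of this list, 7 had a log2 fold change above 0, with a median of 0.01.

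Iron export and systemic control had 4 of 10 genes tested and 0 called by edgeR, 0 also at an unadjusted p below 0.05 and 0 in DESeq2. HAMP, which encodes the hormone hepcidin, was among the 6 genes too low to test. Ferritin handling and iron chaperones had 8 of 10 genes tested and 0 called by edgeR or DESeq2, with 0 at an unadjusted p below 0.05. This list includes PCBP1 and PCBP2, which load iron onto ferritin (226.9 and 350.6 CPM in the controls, 234.8 and 382.6 CPM with ppk1). Other transcripts described as carrying an IRE, such as EPAS1, had 6 of 8 tested and 0 called by edgeR or DESeq2, with 1 at an unadjusted p below 0.05. Its median was 0.00.

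RBX1, the RING subunit of the ligase in which FBXL5 works, was at 47.7, 54.0 and 68.9 CPM in the controls. With ppk1 it was at 62.2, 68.4 and 71.2 CPM. The groups overlapped through control D, and the ppk1 library was the higher of each pair. RBX1 rose by the edgeR test (log2 fold change 0.26, SE 0.08, adjusted p = 0.026). The call was lost without the block (0.28), without replicate B (0.15) or C (0.56), with upper-quartile scaling (0.062) and in DESeq2 (0.080), as adjusted p. Calls over all genes also fell without the block (470 of 19574) and without replicate C (406 of 19751), and rose without replicate B (2435 of 19422). The RBX1 partners SKP1 and CUL1 did not pass, with log2 fold changes of 0.18 and 0.11.

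Iron-sulfur cluster genes lay mostly above 0. In the mitochondrial list, 17 of 23 genes had a log2 fold change above 0, with a median of 0.11 beside 0.01 over all genes, where 10394 of 19574 lay above 0. At an unadjusted p below 0.05, 6 of the 23 were higher and 1 lower, beside 2381 higher and 2274 lower of the 19574. In all 3 pairs, 8 of the 23 were higher and 2 lower, beside 4430 higher and 4137 lower of the 19574. No higher gene of the list passed the adjusted p. NFS1, the cysteine desulfurase that supplies sulfur, had a log2 fold change of 0.22 (edgeR adjusted p = 0.063). GLRX5, a glutaredoxin that passes clusters on, also had 0.22 (edgeR adjusted p = 0.059). Leaving out a pair gave edgeR adjusted p of 0.048 to 0.78 for NFS1 and 0.022 to 0.63 for GLRX5, highest without replicate C. In the cytosolic list, 8 of 9 genes lay above 0 with a median of 0.13, and 0 passed by edgeR or DESeq2 (2 at an unadjusted p below 0.05).

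FDXR, the ferredoxin reductase that feeds electrons to cluster assembly and a known target of p53, was the only gene of the mitochondrial list that passed, and it fell. It was at 60.6, 48.3 and 42.2 CPM in the controls and at 36.9, 39.1 and 37.6 CPM with ppk1. The groups did not overlap, and the 3 controls were spread more widely than the 3 ppk1 libraries. The log2 value was -0.40 (SE 0.08, edgeR adjusted p = 0.00069). It was -0.24 without replicate B, with an adjusted p of 0.063, and the adjusted p was 0.068 without the block.

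Heme genes had 19 of 20 tested, with 11 above 0 and a median of 0.04. UROD, a decarboxylase of heme synthesis, was at 65.5, 69.1 and 81.3 CPM in the controls and at 81.7, 83.9 and 90.4 CPM with ppk1. All ppk1 libraries lay above the controls, although control D and ppk1 B were close. UROD rose by the edgeR test (log2 fold change 0.25, SE 0.07, adjusted p = 0.025). The adjusted p was 0.16 without the block, 0.099 without replicate B and 0.47 without replicate C. HMOX1, which breaks down heme and releases its iron, had the same log2 fold change of 0.25 and missed the threshold (edgeR adjusted p = 0.052). The HMOX1 groups overlapped, and its adjusted p was 0.21 without the block and 0.19 in DESeq2. Leaving out a pair gave edgeR adjusted p of 0.040 (without replicate B) to 0.65 (without replicate C). ALAS1, the first enzyme of heme synthesis outside red cells, had -0.19 (edgeR adjusted p = 0.10).

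**Figure D4:**
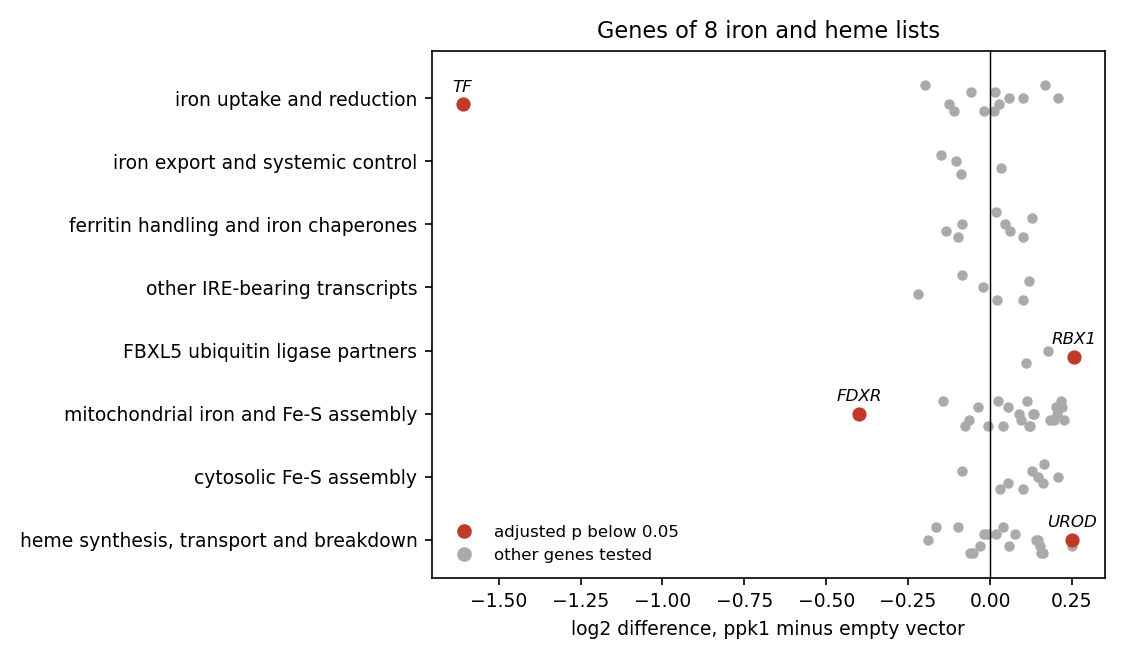
Log2 difference between ppk1 and empty vector (horizontal axis) for every tested gene of 8 iron and heme lists (rows); points are spread vertically only for legibility, and red points with names passed the edgeR adjusted p of 0.05. TF lies at -1.61 and FDXR at -0.40, RBX1 and UROD at 0.26 and 0.25, and all other genes between -0.22 and 0.25.

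The libraries held 40851783 to 67122986 counts, and within each letter the ppk1 total was the larger. Of the 9 markers of the HEK293 line, all had counts in these libraries, with summed levels of 889.0 to 1005 CPM in the controls and 856.2 to 896.0 CPM with ppk1. Of these 9, KRT18 rose and NEFL fell by the edgeR test. VIM alone gave 487.6 to 537.5 CPM of the control sums. In the controls, PAX2 and LHX1 lay between 2.55 and 4.64 CPM and NEFH between 0.32 and 0.44 CPM. Markers of erythroid cells were low in both groups (0.392 to 0.646 CPM in sum), with at most 12 counts for any of them in a library. KLF1, with 7 to 12 counts per library, was the 1 erythroid marker with enough counts to be tested, and it did not pass. Markers of leukocytes were also low (0.758 to 1.15 CPM in sum), and most of that came from CD14, with 27 to 45 counts per library. The ppk1 gene itself is bacterial, and its transcript was not analysed here.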

How the data were processed

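The deposited file is 1 table of read counts per Ensembl gene (58051 rows), 1 column per library, all 6 matched to samples by title. The submitters' processing notes name bcl2fastq 2.20, Trimmomatic, STAR, HTSeq, edgeR, DESeq, Cufflinks and Cuffdiff without roles. Genome build, annotation release, strand setting and the treatment of multiply mapped reads are not given in the sources used here. Per the labels' protocols, libraries were poly(A)-selected and directional.

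The counts deposited by the authors were tested across all genes with edgeR 4.0.16 in R 4.3.3 (glmQLFit, glmQLFTest, TMM scaling, filterByExpr with a minimum count of 10, Benjamini-Hochberg adjustment). The replicate letter was a block, because the series' design states matched replicates. Same-letter libraries deviated from their group means with small correlations across genes of 0.109 (B), 0.135 (C) and 0.0476 (D), against -0.120 to -0.00506 between letters. Deviations from a group mean cancel within the group, so the values between letters are not independent of those of the same letter. Standard errors are the fold change over the square root of F. The F statistic uses a dispersion moderated across genes (prior degrees of freedom 47.5, and 8.75 without the block). Standard errors and intervals therefore rest largely on the spread shared by all genes and not on a gene's own pairs. Intervals are 95% and unadjusted. DESeq2 1.42.0, other scalings and filters, thinning to equal depth and omission of each replicate were alternatives.

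Gene type, exon length, overlaps and sequences came from GENCODE release 29 (GRCh38) by Ensembl identifier. NDOR1 had a second row with 0 counts, which was not used. The members and lists were chosen with earlier results of these data known. All 10 members are named, and of each list the called genes, at most 6. Genes named beside these as examples were chosen after their values were seen.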

Additional observations from a re-analysis of the deposited data

How the results depend on the processing

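No member was called in 9 of 10 alternatives. With no filter on low counts, 1 was called (FTH1, log2 fold change 0.21), and the cause was not tested. Without the replicate block, 0 members and 1 pathway gene (TF) were called, in place of 0 and 4. When each pair was left out in turn, the pathway calls ran from 2 (without replicate C) to 9 (without replicate D), and 0 members were called in each. Over all genes, the main fit called 1777 of 19574, and the fit without the block 470 of 19574. Without replicate C it was 406 of 19751, and without replicate D 1803 of 19897. Of the single values of tested members under all alternatives, 84 kept direction and call, 7 changed sign and 1 (FTH1) became a call. Leaving out a pair gave -0.021 to 0.10 for TFRC, -0.11 to 0.083 for SLC40A1, -0.043 to 0.029 for IREB2 and -0.11 to 0.00074 for NCOA4. Thinned to equal depth, SLC40A1 was 0.0053 and IREB2 0.00077, and IREB2 was 7.2e-05 with no filter. The cause was not tested. The TFRC to FTH1 ratio ran from -0.29 (without replicate B) to -0.05 (without replicate C). The standard errors of the tested members were 0.07 or 0.08 except for SLC40A1, which rests on 112 to 216 counts (0.14). These errors rest largely on dispersion shared across genes. With 3 pairs, the member with the largest difference, 0.21, did not pass the adjusted p.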
